A study of Mus musculus with 18 samples.

Results

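Germline genes are active in egg and sperm precursors and are kept silent in most other cells, and 9 of them were followed here in cyclin C (Ccnc) knockout and wild-type mouse cells. The 9 genes were 4933402E13Rik, Fthl17a, Tex13b, Ddx4, Dazl, Mael, Sycp3, Stra8 and Tex101. The first 4 were picked because their values were high in knockout embryonic stem (ES) cells, and the other 5 are known germline genes. All 9 were measured, among 17087 genes on the arrays. The 4 picked genes are higher in knockout ES cells on average because they were chosen that way, and the arrays of Tex13b and Ddx4 overlapped between genotypes. None of the 5 others passed the test in ES cells.

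Expression was read on 18 arrays of 1 colour, 1 per sample. The 6 groups were ES cells, fibroblasts (primary, embryonic) and brain of E18.5 embryos, wild-type or CCNC-/-, with 3 samples in each. The labels call the samples biological replicates and do not say which cultures, lines or animals they came from, so p-values measure only the spread between these samples. The sources used here do not give the allele, the strain, the ES cell lines or the way the gene was removed. Values are on the log2 scale, on which a difference of 1 is a 2-fold difference, and each gene has its own baseline.

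Cyclin C activates the kinases CDK8 and CDK19 and forms with them a detachable arm of Mediator, through which transcription factors act on RNA polymerase II. In somatic cells germline genes are shut off by DNA methylation of their promoters and by repressor complexes, among them a variant Polycomb complex in which MGA with MAX and E2F6 bind the promoter. ES cells are less strict and transcribe part of the germline program. The members cover several stages of that program. Ddx4 and Mael act in the piRNA pathway of germ cells, which silences transposons, and Dazl controls translation in germ cells. Stra8 and Sycp3 act at the entry into meiosis and in pairing chromosomes. Tex101 is a surface protein of male germ cells. Fthl17a and Tex13b are X-linked genes of the germ line. 4933402E13Rik is also X-linked, and no role is given for it here.

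Promoters of some members are shown because the MGA and MAX dimer reads the E-box CACGTG and E2F6 reads a site that contains GCGGGA. Each is 300 bases of RefSeq sequence (build GRCm38.p6), from 250 bases before to 50 bases after the annotated start, in the direction of transcription. Capitals mark CACGTG, which reads alike on both strands, and GCGGGA or its reverse complement TCCCGC; no match of the one overlapped a match of the other. The first 2 sequences belong to the genes that separated the genotypes in ES cells. The last 3 are the only members that held both motifs.
4933402E13Rik, chrX:62283249-62283548, plus strand: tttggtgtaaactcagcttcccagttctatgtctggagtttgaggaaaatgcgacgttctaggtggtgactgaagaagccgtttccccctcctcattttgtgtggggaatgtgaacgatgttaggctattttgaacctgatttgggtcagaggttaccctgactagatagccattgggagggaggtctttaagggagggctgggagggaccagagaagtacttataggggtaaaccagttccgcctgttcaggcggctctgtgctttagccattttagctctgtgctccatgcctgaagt
Fthl17a, chrX:85249427-85249726, plus strand: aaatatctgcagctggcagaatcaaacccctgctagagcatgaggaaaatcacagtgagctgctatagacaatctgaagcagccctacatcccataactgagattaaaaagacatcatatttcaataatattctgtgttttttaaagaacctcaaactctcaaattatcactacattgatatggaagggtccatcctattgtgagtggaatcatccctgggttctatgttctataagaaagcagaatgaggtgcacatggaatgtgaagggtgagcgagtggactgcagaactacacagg
Ddx4, chr13:112652261-112652560, minus strand: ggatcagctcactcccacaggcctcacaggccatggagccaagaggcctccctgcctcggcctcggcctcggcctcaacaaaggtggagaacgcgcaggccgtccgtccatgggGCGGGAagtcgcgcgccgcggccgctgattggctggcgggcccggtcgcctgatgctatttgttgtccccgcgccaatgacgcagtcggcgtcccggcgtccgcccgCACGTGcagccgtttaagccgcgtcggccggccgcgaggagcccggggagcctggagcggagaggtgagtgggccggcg
Mael, chr1:166238695-166238994, minus strand: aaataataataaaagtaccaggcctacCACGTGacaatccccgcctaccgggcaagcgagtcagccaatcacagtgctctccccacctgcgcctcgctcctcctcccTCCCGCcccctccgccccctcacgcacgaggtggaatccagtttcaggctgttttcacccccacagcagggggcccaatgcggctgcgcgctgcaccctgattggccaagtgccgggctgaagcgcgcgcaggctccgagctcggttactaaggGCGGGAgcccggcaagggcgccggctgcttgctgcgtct
Sycp3, chr10:88459337-88459636, plus strand: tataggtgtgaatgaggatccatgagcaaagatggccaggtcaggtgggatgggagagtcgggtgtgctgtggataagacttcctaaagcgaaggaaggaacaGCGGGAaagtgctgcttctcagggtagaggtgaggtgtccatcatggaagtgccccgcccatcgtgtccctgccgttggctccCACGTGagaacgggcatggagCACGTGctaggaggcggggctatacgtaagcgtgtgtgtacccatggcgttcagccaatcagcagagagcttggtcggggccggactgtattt

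Promoters of all 9 members were found, 10 in all, since 4933402E13Rik has 2 annotated starts. Ddx4 held 1 CACGTG and 1 GCGGGA, Mael held 1 and 2, and Sycp3 held 2 and 1. Neither motif stood in the window of 4933402E13Rik at either start, of Fthl17a, of Tex13b, of Dazl, of Stra8 or of Tex101, which says only that these letters are not in those 300 bases. Among the 16921 promoters of genes on the arrays, 8.91% held CACGTG, 29.6% held GCGGGA on either strand and 3.11% held both; among all 32851 promoters of the table the shares were 7.15%, 20.0% and 1.99%. The members also differed in CpG content. The Ddx4 window held 38 CG dinucleotides, Dazl 28, Mael 24, Tex101 19, Sycp3 15, Tex13b 13, Stra8 10 and each 4933402E13Rik start 6, while Fthl17a held 1. The median was 16 for genes on the arrays. The 3 X-linked members, Stra8 and Sycp3 lay below that median.

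The targeted gene and the labels were checked first. Ccnc fell by 2.37 log2 units in knockout ES cells (9.30 ± 0.17 to 6.93 ± 0.35, SD, n = 3 and 3; limma adjusted p 0.0247, and 0.0678 with the replicate number as a block) and fell by 1.29 in fibroblasts (9.57 ± 0.03 to 8.27 ± 0.03; adjusted p 6.79e-06). In brain the difference of -0.69 did not pass (8.90 ± 0.30 to 8.21 ± 0.15; adjusted p 0.627 over all genes, unadjusted 0.00144); with the same block its adjusted p was 0.0424. Replicates varied most in ES cells, where the median SD of a gene was 0.149 (wild type) and 0.164 (knockout), against at most 0.079 for fibroblasts and 0.117 for brain. The 9 ES cell markers measured, such as Pou5f1 and Sox2, averaged 12.14 to 12.79 on the ES cell arrays against 6.37 to 7.11 on all others. Not every marker separated the cell types. Sox2 was also high in brain (11.02 to 11.73), and the brain marker Stmn2 was high in ES cells (11.69 to 12.95). The 10 fibroblast markers averaged 12.17 to 12.62 in fibroblasts and 7.26 to 7.58 in ES cells, and the 10 brain markers 11.82 to 12.03 in brain and 7.12 to 7.53 in ES cells.

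Libraries numbered 1 stood apart in ES cells. On the knockout array numbered 1, the 16 markers of extraembryonic endoderm, the yolk sac lineage that ES cells can give rise to, averaged 10.71. The other ES cell arrays gave 7.97 to 8.54, and 14 of the 16 markers were highest on that knockout array. Its 9 ES cell markers averaged 12.14, the lowest of the 6. Of the Y-linked genes, looked at after their values were seen, Eif2s3y, Ddx3y and Uty also split by number. Eif2s3y read 8.24, 4.0 and 4.21 on the 3 wild-type arrays and 7.46, 4.27 and 4.10 on the 3 knockout arrays. Kdm5d did not split in ES cells, at 5.42, 5.32 and 5.70 in wild type and 5.30, 5.42 and 5.26 in the knockout. Fibroblast arrays numbered 1 split the same way, with Eif2s3y at 8.12 and 8.18 against 4.15 to 4.46 on the other 4 fibroblast arrays. The differences of the members in ES cells, and their range in fibroblasts, are given with and without the arrays numbered 1.

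**Figure D1:**
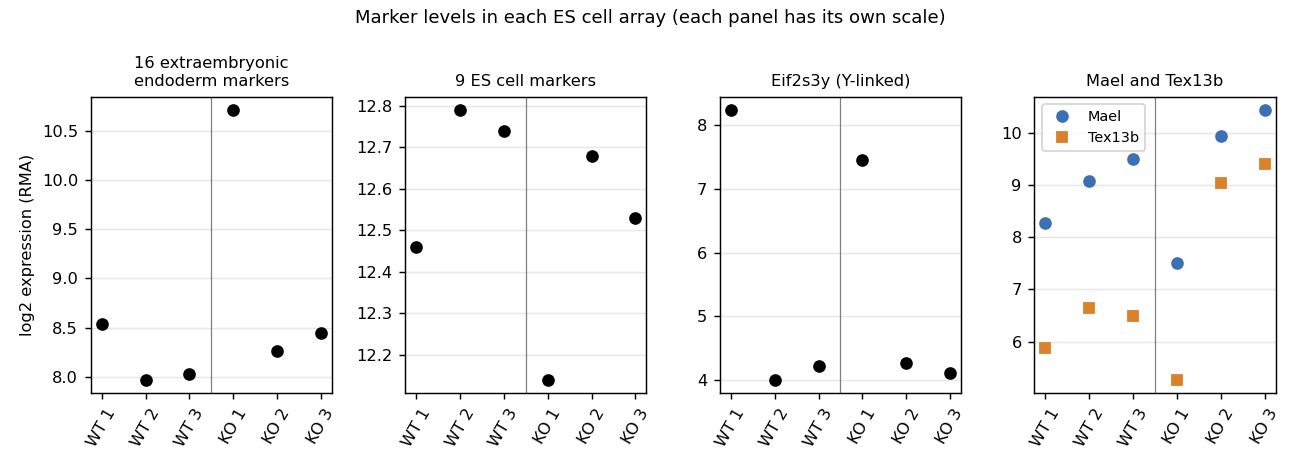
Mean log2 level of 16 extraembryonic endoderm markers and of 9 ES cell markers, and the levels of Eif2s3y, Mael and Tex13b, on each of the 6 ES cell arrays (WT, wild type; KO, knockout; numbers are replicate numbers; each point is 1 array). The knockout array numbered 1 had the highest endoderm marker mean, 10.71, and the lowest values of Mael and Tex13b.

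In ES cells the 4 picked genes had knockout means 1.02 to 3.33 log2 units above wild type, which is the measure they were chosen by and so carries no test. 4933402E13Rik read 6.64, 6.96 and 6.96 on the wild-type arrays and 9.81, 10.07 and 10.68 on the knockout arrays. All 3 knockout arrays lay above all 3 wild-type arrays. The means differed by 3.33, or 10.04-fold, which put the gene at rank 1 of 17087 by increase.

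Fthl17a, a relative of ferritin heavy chain, read 7.35, 7.20 and 7.39 in wild type and 8.68, 8.78 and 9.26 in the knockout. Its groups also did not overlap, and the means differed by 1.59, or 3.01-fold (rank 14). Every knockout array lay above every wild-type array for 6.34% of all genes; nothing is read from the 2 picked genes against that share, and 0 of the 5 genes not picked did so.

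Tex13b read 5.87, 6.65 and 6.49 in wild type and 5.27, 9.05 and 9.41 in the knockout. The knockout array numbered 1 was the lowest of the 6 and the other 2 knockout arrays were the highest, so the mean difference of 1.57 (rank 16) described no single array. Without both arrays numbered 1 the difference was 2.66. Endoderm markers were high on that low array, as given above, and their part in the result was not tested.

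Ddx4, the mouse Vasa helicase that marks germ cells, read 7.84, 7.09 and 7.22 in wild type and 7.72, 8.80 and 8.68 in the knockout. For Ddx4 the knockout array numbered 1 lay inside the wild-type range, and the other 2 knockout arrays lay above it. The mean difference was 1.02 (rank 68), and 1.58 without both arrays numbered 1. Ddx4 was the last gene but 1 among the 69 genes, 0.404% of all, with a knockout mean at least 1 log2 unit higher; the gene just above it in rank was Ndrg1, also at 1.02. 4933402E13Rik and Fthl17a moved little without both arrays numbered 1, to 3.41 and 1.72.

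**Figure D2:**
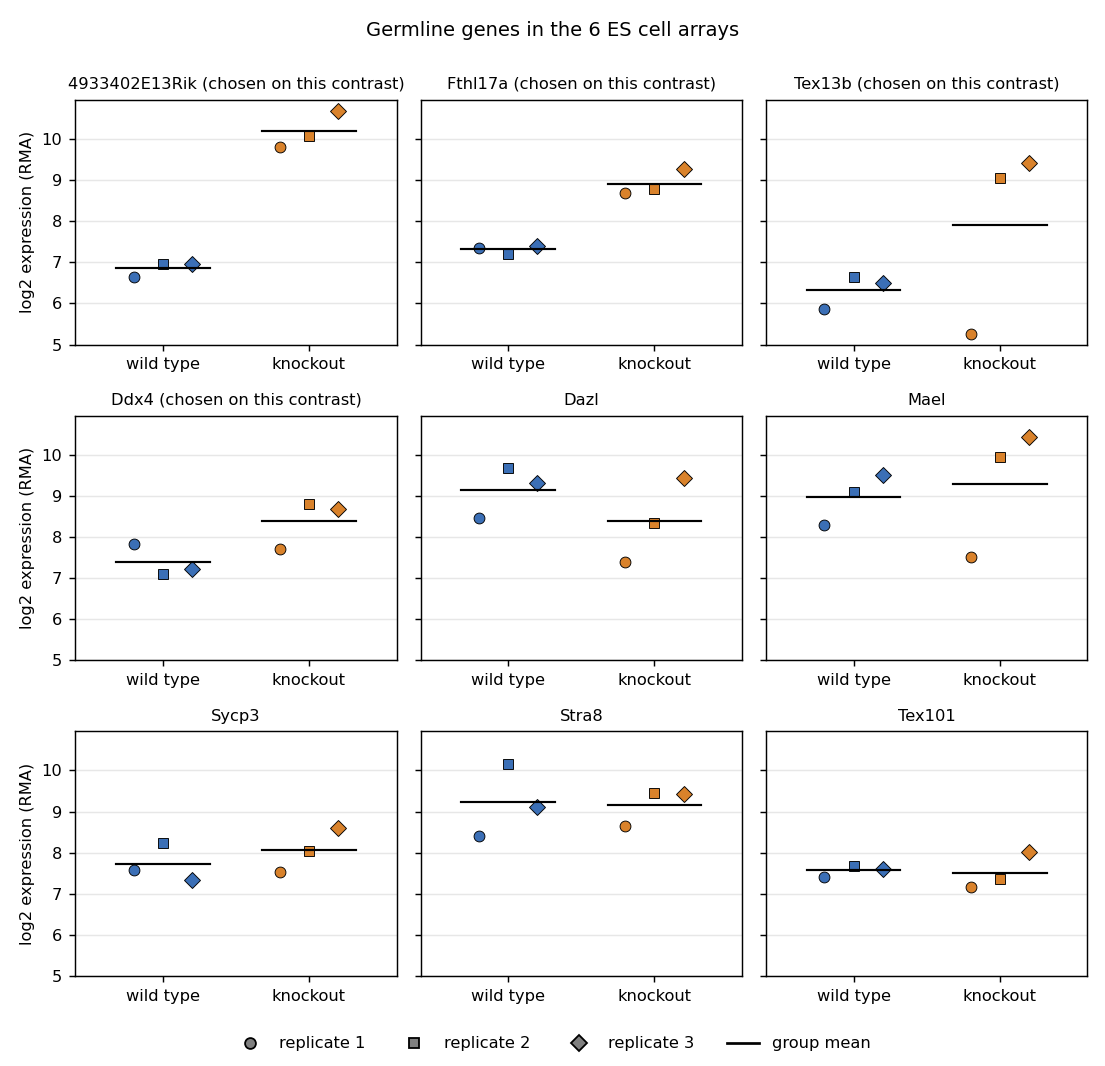
Log2 expression of the 9 germline genes on the 6 ES cell arrays (symbols, replicate numbers; bars, group means); the y axis is shared. 4933402E13Rik and Fthl17a have all 3 knockout arrays above all wild-type arrays, while the knockout array numbered 1 is the lowest knockout array for each gene.

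The 5 germline genes not chosen on these values did not pass the test between genotypes in ES cells. In that comparison 0.0117% of all genes were called at an adjusted p below 0.05 (2 of 17087: Ccnc, and 4933402E13Rik, which was picked on these values, so that nothing is read from its call), and of the 5, 0 were called and 0 had an unadjusted p below 0.05. The germ cell regulators come first.

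Dazl, an RNA-binding protein that controls translation in germ cells, read 8.45, 9.67 and 9.32 in wild type and 7.40, 8.34 and 9.43 in the knockout. The groups overlapped, with the lowest value in the knockout. The difference was -0.76 (SE 0.51, 95% interval -1.96 to 0.44, limma adjusted p 0.684), and -0.61 without both arrays numbered 1.

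Mael, a factor of piRNA-guided transposon silencing, read 8.28, 9.09 and 9.51 in wild type and 7.51, 9.94 and 10.44 in the knockout. The knockout group held both the lowest and the highest array. The difference was 0.34 (SE 0.72, interval -1.34 to 2.02, adjusted p 0.907). Without both arrays numbered 1 it was 0.89 (interval 0.36 to 1.42, unadjusted p 0.0058, adjusted p 0.328), still not called; 0.0351% of all genes were called in that fit, and 0 of the 5.

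Among the meiotic genes, Sycp3, a component of the synaptonemal complex that holds paired chromosomes together, read 7.58, 8.25 and 7.34 in wild type and 7.54, 8.04 and 8.61 in the knockout. The ranges overlapped over most of their width. The difference was 0.34 (SE 0.32, interval -0.40 to 1.08, adjusted p 0.771), and 0.53 without both arrays numbered 1.

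Stra8, which retinoic acid induces in germ cells as they enter meiosis, read 8.40, 10.16 and 9.11 in wild type and 8.64, 9.45 and 9.43 in the knockout. All 3 knockout arrays fell inside the wild-type range. The difference was -0.05 (SE 0.43, interval -1.06 to 0.96, adjusted p 0.979), and -0.19 without both arrays numbered 1.

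Tex101, a glycoprotein on the surface of male germ cells that sperm need for fertility, read 7.42, 7.68 and 7.61 in wild type and 7.17, 7.37 and 8.02 in the knockout. The wild-type arrays lay within the knockout range. The difference was -0.05 (SE 0.22, interval -0.56 to 0.46, adjusted p 0.959), and 0.05 without both arrays numbered 1. Intervals of the 5 genes reached 2.02 log2 units from 0, so sizable differences in either direction lay within the error for most of them.

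One array was low for the whole set. Of the 3 knockout ES cell arrays, the one numbered 1 was the lowest for 9 of 9 members, against 34.8% of all genes. Of the 3 wild-type arrays, number 1 was the lowest for 6 of 9 members, against 34.2% of all genes. The drop of the knockout array numbered 1 below the mean of the other 2 was widest for Tex13b, at -3.96, and Mael, at -2.68, and narrowest for Fthl17a, at -0.34. The same array had the high endoderm markers and the Y-linked signal given above; in bulk RNA, fewer cells that express a gene and less RNA per cell cannot be told apart.

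**Figure D3:**
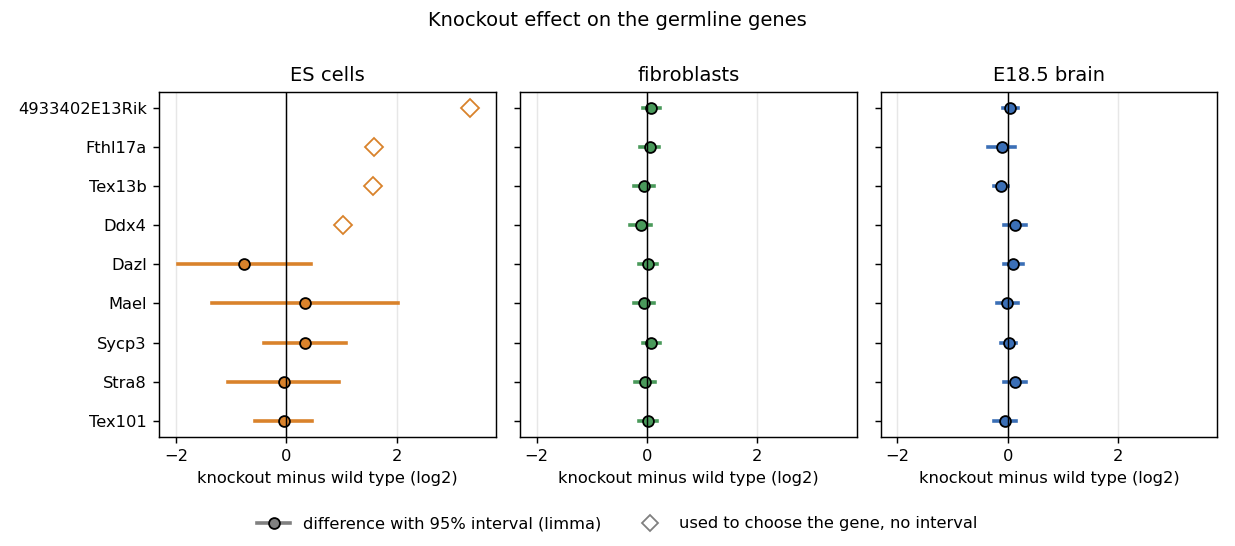
Knockout minus wild-type difference (log2) of the 9 genes in ES cells, fibroblasts and E18.5 brain; filled points have the 95% interval of the limma fit (bars), and open diamonds mark differences used to choose the gene, with no interval. The intervals of the tested genes are wide in ES cells and lie within 0.35 of 0 in the other cell types.

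In fibroblasts none of the 9 members passed the test. There, 12% of all genes were called (7.09% higher and 4.92% lower) but 0 of 9 members, and 0 of 9 had an unadjusted p below 0.05. On the 12 fibroblast and brain arrays 4933402E13Rik, Tex13b, Ddx4, Mael and Sycp3 read at most 5.13. The 10th percentile of gene means was 5.905, so these genes lay near the low end of the scale. Whether they were detected in fibroblasts or brain was not tested, and narrow intervals there carry that limit. 4933402E13Rik read 4.73, 4.70 and 4.79 in wild-type and 4.72, 4.91 and 4.84 in knockout fibroblasts, a difference of 0.08 (interval -0.08 to 0.24, limma adjusted p 0.526).

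These arrays overlapped, unlike those of ES cells. Fthl17a differed by 0.05 (interval -0.13 to 0.22), Tex13b by -0.05 (-0.23 to 0.13) and Ddx4 by -0.11 (-0.30 to 0.08). The 9 differences lay between -0.11 and 0.08, and the lowest adjusted p was 0.465. Without both fibroblast arrays numbered 1, a setting chosen after seeing the data, 11.2% of all genes and 0 of 9 members were called, with differences of -0.16 to 0.13 and a lowest adjusted p of 0.393. The 10 fibroblast markers averaged 12.55 to 12.62 in wild type and 12.17 to 12.19 in the knockout, and their part in these values was not tested. No member separated the genotypes, where 18.4% of all genes had every knockout array above wild type and 12.5% had every one below.

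Brain gave the same count. There, 0.00585% of all genes were called (1 of 17087, Xist, named after its value was seen; 15 with the replicate number as a block) and 0 of 9 members, 0 of them with an unadjusted p below 0.05. 4933402E13Rik read 4.68, 4.71 and 4.81 in wild-type and 4.78, 4.78 and 4.78 in knockout brain, a difference of 0.05 (interval -0.09 to 0.19, adjusted p 0.887). The groups overlapped.

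Tex13b was the only member whose brain groups did not overlap. It read 4.80, 4.78 and 4.77 in wild type and 4.64, 4.69 and 4.66 in the knockout, all lower. The difference was -0.12 (SE 0.06, interval -0.25 to 0.01, adjusted p 0.714), in a comparison where 6.06% of all genes had every knockout array below wild type and 7.98% had every one above. Tex13b is X-linked, and Xist read 12.25, 12.40 and 12.34 in wild-type and 8.67, 8.96 and 8.29 in knockout brain; the part of sex-linked signal was not tested. The 9 brain differences lay between -0.12 and 0.13.

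The difference of the knockout effect between cell types was tested only for genes not chosen on ES cells. Of the 5 such genes, 0 were called for fibroblasts minus ES cells (0.995% of all genes) and 0 for brain minus ES cells (0.275%). The widest were those of Dazl, 0.77 (interval -0.26 to 1.81, adjusted p 0.513) and 0.86 (-0.18 to 1.90, adjusted p 0.433). Mael gave -0.39 for fibroblasts minus ES cells (interval -1.85 to 1.06, adjusted p 0.855), and -1.28 with an adjusted p of 0.045 when the knockout ES cell array numbered 1 was left out. Between fibroblasts and brain the effect could be tested for all members, and 0 of 9 were called (0.334% of all genes). For the picked genes the values stand side by side as a description: the 4933402E13Rik difference was 3.33 in ES cells, against 0.08 in fibroblasts and 0.05 in brain.

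Without the knockout, ES cells had higher levels of most members than the other cells did. Wild-type ES cells were compared with wild-type fibroblasts for the 5 genes not chosen on ES cell values, and 4 were higher, where 40.1% of all genes were higher and 64.2% differed in either direction. Mael averaged 8.96 ± 0.62 in wild-type ES cells and 4.96 ± 0.06 in wild-type fibroblasts (SD, n = 3 and 3), a difference of 4.0 or 16.05-fold (SE 0.49, limma adjusted p 1.44e-06). Dazl averaged 9.15 ± 0.63 and 5.80 ± 0.05, a difference of 3.34 (SE 0.35, adjusted p 2.07e-07).

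Both germ cell regulators thus stood well above their fibroblast level without the knockout. Sycp3 averaged 7.72 ± 0.47 and 4.48 ± 0.01, a difference of 3.24 (SE 0.21, adjusted p 6.02e-10). Stra8 averaged 9.22 ± 0.88 and 7.43 ± 0.06, a difference of 1.80 (SE 0.30, adjusted p 4.46e-05). Tex101 averaged 7.57 ± 0.13 and 7.27 ± 0.09, a difference of 0.31 that was not called (SE 0.15, adjusted p 0.0893).

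Against wild-type brain, 5 of the 5 genes were higher, where 47.7% of all genes were higher and 73.8% differed. Mael was higher by 4.07, Sycp3 by 3.26, Dazl by 3.25 and Stra8 by 2.12 (adjusted p at most 5.14e-06). Tex101 was higher by 0.43 (adjusted p 0.018); the call was lost with median centring of the arrays, which lowered all ES minus brain differences by 0.11, and without the wild-type ES cell array numbered 2 or the wild-type brain array numbered 1 (adjusted p 0.069, 0.0626 and 0.0644). Wild-type fibroblasts and brain did not pass the test for any member (0 of 9; 60.9% of all genes), with differences of -0.16 to 0.32. That fit shares 1 spread over ES cells, fibroblasts and brain, and the ES cell arrays varied most.

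**Figure D4:**
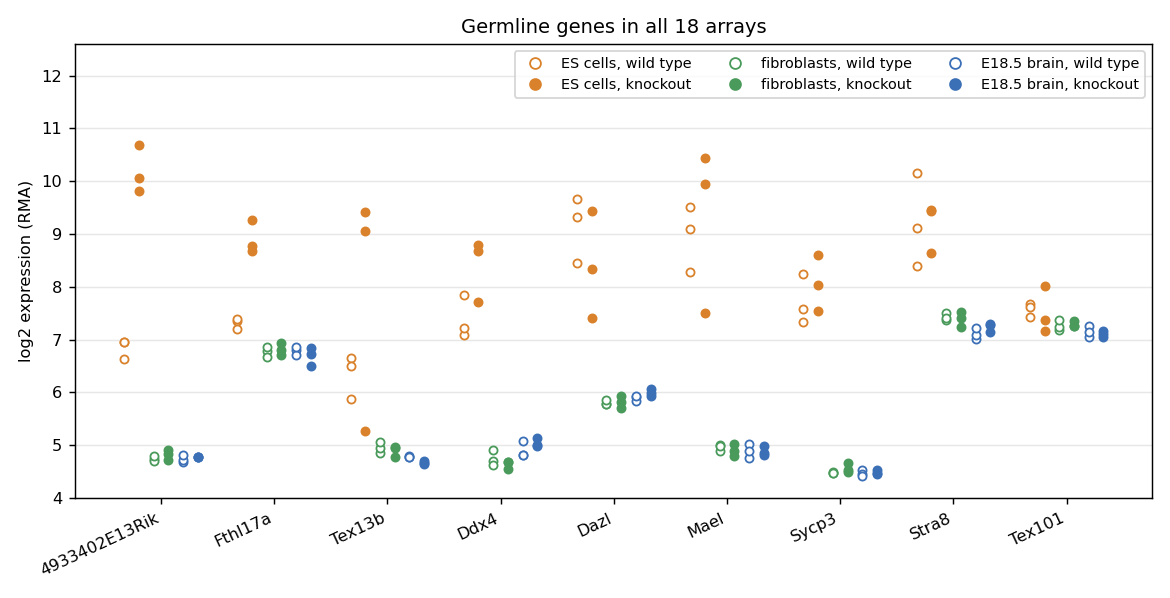
Log2 expression of the 9 genes on all 18 arrays (open, wild type; filled, knockout; each point is 1 array). Fibroblast and brain values of each gene lie close together and, for all genes but Tex101, below every ES cell array.

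The picked genes, chosen for their knockout ES cell values, had that group on top and wild-type ES cells next. 4933402E13Rik and Fthl17a were highest in knockout ES cells, next in wild-type ES cells with no overlap of arrays, and then in fibroblasts and brain, whose neighbouring groups overlapped. In wild-type ES cells 4933402E13Rik averaged 6.86 ± 0.18, which was 2.12 above wild-type fibroblasts and 2.12 above wild-type brain, and Fthl17a averaged 7.32 ± 0.10, which was 0.55 and 0.53 above. For Tex13b and Ddx4 the knockout and wild-type ES cell arrays overlapped, and both lay above the other cells. Below them, Tex13b was higher on average in fibroblasts than in brain and Ddx4 in brain than in fibroblasts; neighbouring groups overlapped, except for wild-type and knockout brain in Tex13b.

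For the other genes knockout and wild-type ES cells overlapped at the top, with Dazl, Stra8 and Tex101 higher on average in wild type and Mael and Sycp3 in the knockout. Below them, the fibroblast and brain groups of neighbouring rank overlapped for each of these 5 genes. Every ES cell array exceeded every fibroblast and brain array for 4 of the 5 genes not picked, against 23.3% of all genes, and for the 4 picked genes, whose choice bears on that count. Tex101 was the exception: its ES cell arrays ran from 7.17 to 8.02 and the others from 7.04 to 7.37. Sycp3 ran from 7.34 to 8.61 in ES cells and from 4.41 to 4.67 on the 12 other arrays, and Mael from 7.51 to 10.44 and from 4.76 to 5.03.

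Chromosomal position was shared by 3 of the 4 picked genes. 4933402E13Rik, Fthl17a and Tex13b lie on the X chromosome, and Ddx4 lies on chromosome 13. None of the other 5 is X-linked. The 619 X-linked genes had a median ES cell difference of 0.014 and the 16459 autosomal genes -0.034. Of the X-linked genes, 13 (2.1%) had a knockout mean at least 1 log2 unit higher, against 56 (0.34%) of the autosomal genes, while every knockout array lay above wild type for 3.72% and 6.44%. The 13 include the 3 picked X-linked genes, which were chosen on this value, so nothing is read from that share. Rhox5, Rhox6 and Rhox9, given below, are also among the 13. Xist, the RNA that silences 1 X chromosome in female cells, read 9.11, 10.24 and 9.64 in wild-type and 8.52, 9.51 and 9.76 in knockout ES cells. These arrays overlapped, and the part of sex-linked signal in the values of the 3 genes was not tested.

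By pattern over the 18 arrays, the gene most like 4933402E13Rik was Fthl17a (Pearson r 0.982, and 0.991 over the 6 ES cell arrays), followed by Dok2 (0.977 and 0.938), whose ES cell difference was 1.09. The gene most like Fthl17a after 4933402E13Rik was the X-linked 3830417A13Rik (0.953 and 0.888), with a difference of 1.52. For Mael it was Syce1, a synaptonemal complex gene (0.997 and 0.983), with a difference of 0.10. Tex13b was most like Slc13a5 (0.976 and 0.969), Ddx4 like Cited4 (0.988 and 0.968), Dazl like Glod5 (0.991 and 0.982), Sycp3 like Lrrc34 (0.995 and 0.814), Stra8 like Swt1 (0.989 and 0.973) and Tex101 like 1700018B24Rik (0.944 and 0.982). These coefficients describe arrays that fall into 6 groups of shared genotype and cell type and were normalized by the authors. The arrays are therefore not independent points. 4933402E13Rik, Fthl17a, Tex13b and Ddx4 were picked for high values on the knockout ES cell arrays, which also enter the coefficients. Likeness of the picked genes to each other, or to genes high on the same arrays, can follow from that choice. Nothing is read from it, and shared regulation was not tested.

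Other genes of the germline program did not pass the test in ES cells. The median difference over all genes was -0.03, with 42.7% of genes higher in the knockout. Of 27 measured meiosis genes, 5 were higher on average, 0 were called and the median was -0.18. The knockout arrays lay below all wild-type arrays for 4 of them (Dmc1, Meiob, Brdt and Terb1; 9.30% of all genes) and above for 0. The lowest was Meioc, a partner of Ythdc2 in the meiotic program, at -1.12 (adjusted p 0.598), and at -0.66 without wild-type array 2 or -0.60 without knockout array 1.

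Of 20 piRNA pathway genes, 8 were higher, 0 were called and the median was -0.04. Piwil2, a Piwi protein that binds piRNAs, was at 0.63 (adjusted p 0.653), and Tex19.1 at -0.58 (0.547). Of 19 germ cell regulators, 2 were higher, 0 were called and the median was -0.16. Dmrt1, a transcription factor of the male germ line, read lower on all knockout arrays, with a difference of -1.34 (adjusted p 0.504, and 0.0049 in 1 fit of all 18 arrays), or -0.89 without both arrays numbered 1.

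Of 28 testis genes, 12 were higher and 0 were called, with a median of -0.01, and of the 4 measured genes of the two-cell embryo program 2 were higher and 0 were called, with a median of -0.04. Without both arrays numbered 1 the medians were -0.06 for meiosis, 0.07 for the piRNA pathway, -0.16 for germ cell regulators, 0.08 for testis genes and -0.03 for all genes, again with 0 called in each list.

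The other X-linked germline genes held the widest values. Of 16 measured, 7 were higher, 0 were called and the median was -0.04; 1 of these 16, Mageb3, maps to chromosome 2 in the RefSeq table. Rhox6, a homeobox gene of the reproductive X-linked cluster, was 2.28 higher, Rhox5 1.65 and Rhox9 1.58, each with all knockout arrays above wild type (6.34% of all genes). All knockout arrays lay below wild type for 2 others, Tex13a at -0.22 and Ccnb3 at -0.29 (9.3% of all genes). The wild-type array numbered 1 was the lowest of the 6 for all 3 Rhox genes. Rhox6 read 7.81, 9.99 and 11.17 in wild type and 11.65, 12.11 and 12.04 in the knockout. Without that array the differences were 1.35 for Rhox6, 0.98 for Rhox5 and 0.99 for Rhox9, and without both arrays numbered 1 they were 1.498, 0.98 and 1.11. With all arrays their adjusted p-values were 0.533, 0.547 and 0.522. In a fit of all 18 arrays, which pools the spread of all cell types, they were 0.0203, 0.0292 and 0.0128.

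**Figure D5:**
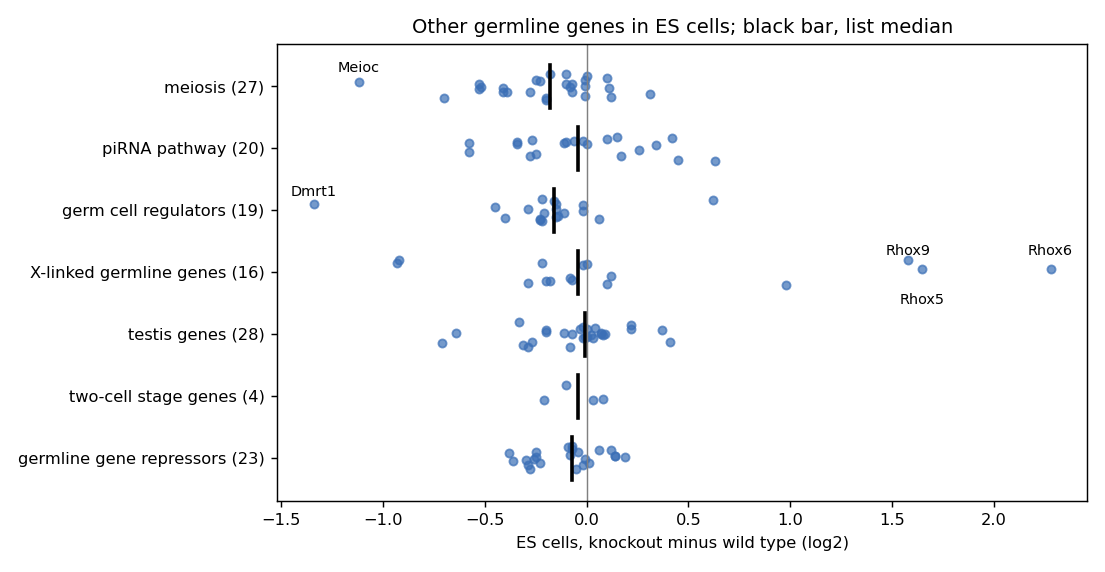
Knockout minus wild-type difference in ES cells (log2) of the measured genes of 7 lists, with the number measured in brackets (each point is 1 gene, spread vertically for legibility; black bars, list medians). List medians lie between -0.18 and -0.01, and Rhox6, Rhox5 and Rhox9 lie farthest to the right.

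Genes linked to silencing of the germline program were measured too, 23 in all. They include subunits of the MGA and E2F6 complex, histone methyltransferases and DNA methylation factors. Tet1 at -0.36 and Tet2 at -0.38, the lowest of the list, encode enzymes that remove DNA methylation, so the list mixes opposite roles. Of the 23, 6 were higher in knockout ES cells, 0 were called and the median was -0.07. All knockout arrays lay below wild type for 3 of 23 (9.3% of all genes) and above for 0 (6.34%). These 3 were Trim28 at -0.23 (limma adjusted p 0.527), the maintenance DNA methyltransferase Dnmt1 at -0.29 (0.533) and the histone demethylase Kdm1a at -0.30 (0.547). For Kdm1a the adjusted p was 0.0274 in 1 fit of all 18 arrays. In fibroblasts Dnmt1 fell by 0.24 (adjusted p 0.016) and Wdr5 rose by 0.16 (0.0452), 2 of 23 called against 12% of all genes. In brain 0 of 23 were called.

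In fibroblasts 4 other genes of the lists were called. The meiosis genes Syce2, Ythdc2 and Mlh3 fell by 0.23 (limma adjusted p 0.0359), 0.37 (0.0182) and 0.28 (0.0414), 3 of 27. The Tudor protein gene Tdrd7 rose by 0.34 (0.0102), 1 of 20 piRNA pathway genes. Among all genes 12% were called, 4.92% lower and 7.09% higher, and nothing is read from the list counts against these shares. Ythdc2 and Mlh3 are also used outside the germ line. In 1 fit of all 18 arrays all 6 fibroblast calls of listed genes were lost (adjusted p 0.354 to 0.85). In the fit of fibroblasts, Tdrd7 alone of the 6 stayed called without each single array. The Dnmt1 call was lost without wild-type array 3 (adjusted p 0.0661). That of Ythdc2 was lost when wild-type array 1 (0.054), wild-type array 2 (0.0608) or knockout array 2 (0.0564) was left out. That of Mlh3 was lost when wild-type array 1 (0.14), wild-type array 3 (0.101) or either of the knockout arrays numbered 2 (0.126) and 3 (0.0996) was left out. The Syce2 call was lost without any array but knockout array 1 (0.0617 to 0.128), and the Wdr5 call without any single array (0.0679 to 0.133). The medians of the 7 lists in fibroblasts lay between -0.06 and 0.03, against 0.01 for all genes, and in brain, where 0 listed genes were called, between -0.07 and 0.08, against 0.00.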

How the data were processed

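The authors deposited 1 table of log2 values made with RMA, which corrects background, makes array distributions alike and summarises probes, per the submitters' processing notes. Its version, the array type and the genome build could not be read from the sources used here. Per the labels' protocols, cDNA was primed with oligo-dT, so signal comes mainly from transcript 3′ ends. Arrays give no read depth, and 3 arrays per group limit the precision.

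The table held 24185 probe sets, 64 of them controls. Of 24121 transcript probe sets, 22556 matched 1 RefSeq symbol (GRCm38.p6) and 1565 matched none and were left out. The probe set with the highest mean stood for each of 17087 genes. Knockout was compared with wild type per cell type with limma 3.58.1 (lmFit, then eBayes with a trend on intensity; R 4.3.3), with Benjamini-Hochberg adjustment over all genes and a threshold of 0.05. A fit of 18 arrays with 6 group means gave differences between cell types and wild-type levels. Plots used matplotlib 3.10.9 (Python 3.11.15). Each per-cell-type fit was run on simulated data for 17087 genes: of genes given a log2 change of 1, it recovered 67% for ES cells, 99% for fibroblasts and 85% for brain.

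Members and gene lists were chosen with earlier results of these data known. Named genes were the members, Ccnc, called list genes, the 3 list genes with the widest differences per cell type and the 2 genes most correlated with each member; the text gives a subset of these, and genes outside the rule are those named for arrays that did not overlap, the neighbour of Ddx4 in rank and the sex-linked genes. The value just below Ddx4 in rank is not reported here. Alternatives were averaging probe sets, dropping genes below the 40th percentile of the mean, quantile normalization, median centring, other eBayes settings, 1 fit of all arrays, the replicate block and leaving out arrays; the fibroblast fit without both arrays numbered 1 was added after seeing the data. The labels number replicates in every group. Deviations of same-numbered arrays correlated at 0.374, 0.317 and 0.081 (ES cells), 0.363, 0.165 and 0.190 (fibroblasts) and 0.287, 0.350 and 0.469 (brain). All were positive, so the numbers may pair arrays in each cell type, which the labels do not state. The main fits took genotype alone and no pairing, and the replicate block was run as an alternative.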

Additional observations from a re-analysis of the deposited data

How the results depend on the processing

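Within a cell type, no knockout test of a member changed its side of the threshold under any setting that tested it. The 4 picked genes in ES cells are left aside as they carry no test. The 40th percentile filter, at a mean of 7.903, kept only Stra8 among the members, so it says nothing of the others. The ES cell count of 2 became 1 with the mean of probe sets, 1 with the 40th percentile filter, 632 in 1 fit of all 18 arrays, 6 without both arrays numbered 1, and 0 to 6 without single arrays (0 without any wild-type array or knockout array 2, 6 without knockout array 1). Ccnc in ES cells lost its call in 7 of 15 settings, among them those leaving out a wild-type array (adjusted p 0.21, 0.231 and 0.11 for numbers 1, 2 and 3) and the second knockout array (0.299). The fibroblast count of 2052 became 210 in 1 fit and 900 to 2606 without single arrays (1305, 1088 and 1104 without wild-type arrays 1, 2 and 3, and 900 without knockout array 2). The brain count of 1 became 0 in 1 fit and 1 to 2 without single arrays. For differences of effect, fibroblasts minus ES cells gave 170 (30 to 391 without single arrays), brain minus ES cells 47 (25 with quantile normalization, 9 to 220) and fibroblasts minus brain 57 (6 to 68). Wild-type ES cells minus brain gave 12612, and 8291 with the filter. The causes were not tested, except that the filter tests fewer genes.

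With the replicate number as a block, the counts were 1 in ES cells and 15 in brain. They were 523, 323 and 183 for the differences in that order. The block changed no member's call. With it, Ccnc lost its call in ES cells and gained one in brain.

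Without both fibroblast arrays numbered 1, a setting chosen after seeing the data, Ythdc2, Mlh3 and Wdr5 lost their calls (adjusted p 0.0781, 0.102 and 0.131). Small differences changed sign. In that setting Dazl in fibroblasts was -0.059. Tex101 in ES cells was 0.049 without both arrays numbered 1. For brain minus ES cells Tex101 was -0.072 with quantile normalization and -0.0003 with centring. Wild-type fibroblasts minus brain gave -0.031 and -0.037 for 4933402E13Rik and -0.014 and -0.028 for Sycp3. Without single arrays the ranges were: ES cells, Mael -0.24 to 1.23, Stra8 -0.46 to 0.41, Tex101 -0.30 to 0.12; fibroblasts, Dazl -0.041 to 0.070, Fthl17a -0.012 to 0.10, Stra8 -0.11 to 0.042, Tex101 -0.017 to 0.070, Tex13b -0.099 to 0.010; brain, Mael -0.076 to 0.053, Sycp3 -0.010 to 0.050, Tex101 -0.092 to 0.016. For fibroblasts minus ES cells, Mael ran -1.28 to 0.18, Stra8 -0.45 to 0.43, Sycp3 -0.52 to 0.015 and Tex101 -0.10 to 0.32. For brain minus ES cells, Mael ran -1.24 to 0.22, Stra8 -0.28 to 0.60 and Tex101 -0.16 to 0.26. For fibroblasts minus brain, 4933402E13Rik ran -0.011 to 0.086 and Mael -0.11 to 0.021, and the wild-type levels -0.018 to 0.046 for 4933402E13Rik, -0.071 to 0.023 for Fthl17a and -0.011 to 0.049 for Sycp3. The cause was not tested.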
